A study of Coturnix japonica with 29 samples.

Results

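The 100 genes described here were already expressed in the blood of female Japanese quail (Coturnix japonica) that had received saline, and were the ones that stood highest above that level in females injected with lipopolysaccharide (LPS). They were taken from a band of 5852 genes whose median lay between 10 and 1000 CPM (read counts scaled to a library total of 1000000) over the 19 saline-injected females. Within that band genes were ranked by the median log2(CPM + 1) of the LPS-injected females minus that of the saline-injected females, and the 100 with the largest positive difference were kept, out of 21561 gene identifiers in the table. The choice therefore used the measured values, and the differences between injected and saline-injected females are given below as a description only.

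RNA sequencing was done on the red cell portion of brachial vein blood of adult females, 1 library per sample, after each female had spent 3 h with a male. The injected birds, F_LPS, gave 10 libraries; these females had received LPS and their males saline. In M_LPS, with 10 libraries, the treatments were turned round: the female had received saline and her male LPS. In M_SAL, with 9 libraries, both birds of the pair had received saline. In the text below, "saline females" are the 19 libraries of M_LPS and M_SAL together. Neither the dose of LPS nor the birds' age beyond adult was stated in the labels.

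LPS coats the surface of Gram-negative bacteria, and vertebrate cells sense it through Toll-like receptor 4. That receptor signals through adaptor proteins to the transcription factor NF-kB, which in mammals and birds raises genes for cytokines, for inhibitors of the pathway itself and for antimicrobial proteins. Bird red cells keep their nucleus and go on transcribing in the circulation. Blood that has been spun down can also carry white cells and thrombocytes with the red cells.

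The deposited table names genes by Ensembl quail identifiers. Of these, 0 could be paired with a symbol in the reference table used here, so the genes are described by their rank (1 for the largest difference), and only the identifiers of the first 2 are given. For the same reason no marker of red cells, white cells or thrombocytes could be read. In such bulk RNA, more cells of a type and more RNA per cell cannot be told apart. Library totals ran from 8898747 to 14366101 reads, and all 100 genes passed the filter on low counts. CPM values are not divided by gene length, so values are compared between birds for one gene, not between genes.

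M_SAL replicates 1 and 3 stood apart from the other saline females for these genes, and the main results that rest on them are given with and without them. Together the 100 genes took 2.13% to 14% of the reads of the 10 F_LPS libraries, with a median of 6.29%. They took 6.16% of the reads of M_SAL replicate 1 and 6.88% of those of replicate 3, and from 0.596% to 1.10% in the 17 other saline females. Both M_SAL libraries thus lay inside the F_LPS range and outside that of the other saline females, although their labels give saline to female and male. Whether these libraries belong to the birds their labels name was not tested, and all values of M_SAL and of saline females carry that doubt. Without the pair, the rule took 97 of the same 100 genes. The totals of the pair, 10348605 and 11603535 reads, were unremarkable, as the other 7 M_SAL libraries had 9399305 to 12020004. Genes detected numbered 12117 in M_SAL replicate 1 and 12334 in replicate 3. The other 7 M_SAL libraries had 12226 to 13578, and F_LPS had 11997 to 13027.

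**Figure D1:**
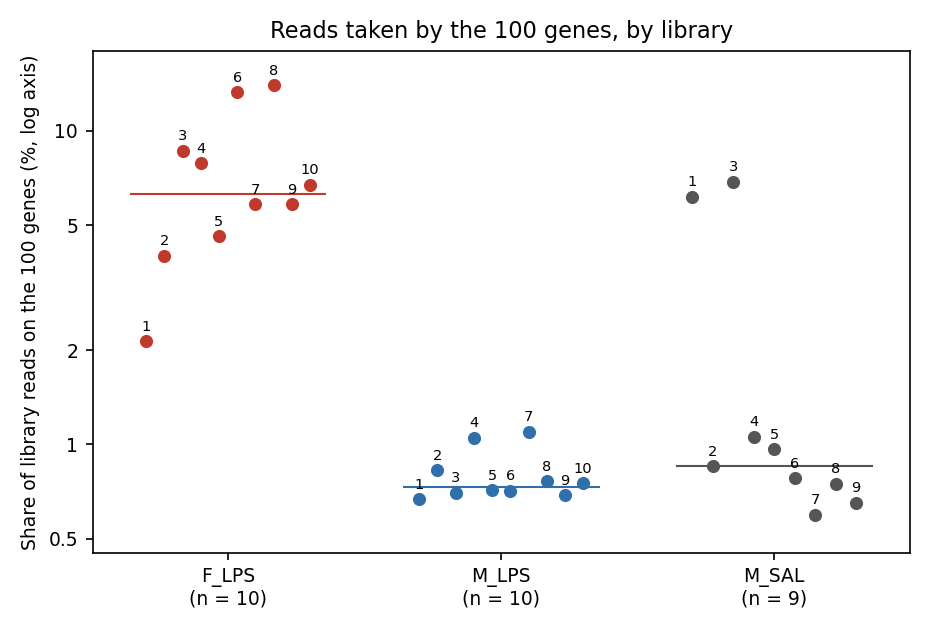
Share of each library's reads that fell on the 100 genes (percent, log axis), by group, with each point labelled by its replicate number and a line at the group median. The 10 F_LPS libraries lie between 2.13% and 14%, M_LPS between 0.669% and 1.10%, and M_SAL replicates 1 and 3 lie at 6.16% and 6.88% while the other 7 M_SAL libraries lie between 0.596% and 1.06%.

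The 100 genes spanned a wide range of responses. The median difference between F_LPS and saline females was 2.06 on the log2(CPM + 1) scale (2.11 without M_SAL replicates 1 and 3), with a largest value of 6.34 and a smallest of 1.09. Counted with all 19 saline females, a difference above 3, which is 8-fold on this scale, was found for 33 genes, and 13 of these exceeded 4. A further 19 genes lay between 2 and 3 and 48 between 1 and 2. Over the other 5752 genes of the band the median difference was -0.06. The positive side was the longer tail: 109 genes of the band differed by more than 1 upwards and 27 by more than 1 downwards. Below the band, 71 of 3351 genes at 1 to 10 CPM and 33 of 12267 genes under 1 CPM in saline females reached the difference of the last of the 100 genes. Above the band, 0 of 91 genes did.

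**Figure D2:**
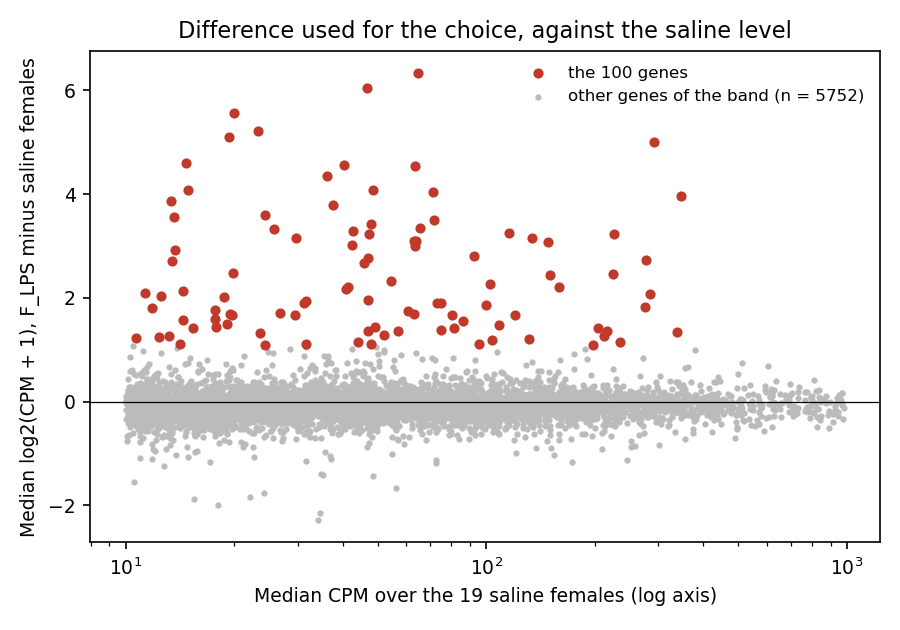
Difference used to choose the genes (median log2(CPM + 1) of F_LPS minus that of saline females) against the median CPM over the 19 saline females on a log axis, for the 100 genes in red and the other 5752 genes of the band in grey. The 100 genes are found from 10.7 to 347 CPM and reach a difference of 6.34, while the lowest value in the band is -2.28.

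Saline levels of the 100 genes were spread through most of the band. Their medians over saline females ran from 10.7 to 347 CPM with a median of 47.2 CPM, close to the 49.8 CPM of the whole band. Large differences were found at each level: the median difference was 1.92 over the 26 genes under 20 CPM, 2.20 over the 51 genes from 20 to 100 CPM and 2.08 over the 23 genes above 100 CPM. In F_LPS the medians of the 100 genes ran from 30.8 to 9375 CPM, and 13 genes exceeded 1000 CPM. Reads were concentrated on few genes. The genes ranked 6, 1, 14 and 2 together held 36.5% of the reads that the 100 genes took in F_LPS.

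ENSCJPG00005018914, ranked 1, had a lowest level of 641 CPM, a median of 5348 CPM and a highest of 17018 CPM over the 10 F_LPS libraries. The same values were 45, 56.0 and 182 CPM in M_LPS, and 14.2, 93.8 and 5238 CPM in M_SAL. Every F_LPS library was above every M_LPS library. M_SAL overlapped F_LPS only through replicates 1 and 3, at 3856 and 5238 CPM, and the highest of the other 7 M_SAL libraries held 198 CPM.

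ENSCJPG00005008615, ranked 2, had a lowest level of 310 CPM, a median of 3222 CPM and a highest of 10101 CPM in F_LPS. Its lowest, median and highest levels were 15.8, 29.3 and 96.8 CPM in M_LPS and 7.49, 53 and 2076 CPM in M_SAL. The order of birds resembled that of the first gene, with F_LPS replicate 1 lowest and replicate 6 highest of its group. M_SAL replicates 1 and 3 held 2076 and 1868 CPM, against at most 155 CPM in the other 7 M_SAL libraries.

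The gene ranked 6 drew the most reads of the 100 in F_LPS, on average 1.02% of a library. It ran from 3026 CPM through a median of 9375 CPM to 19102 CPM in F_LPS, against 174, 289 and 1076 CPM in M_LPS and 118, 350 and 7087 CPM in M_SAL. The gene ranked 14 had the highest saline-female median of the 100, at 347 CPM, and ran from 1455 through 5466 to 13581 CPM in F_LPS. In both genes the only saline-injected birds inside the F_LPS range were M_SAL replicates 1 and 3. The gene ranked 7 reached the same picture from a low saline level. It ran from 79.7 CPM through a median of 383 CPM to 1548 CPM in F_LPS, and held 1476 and 1385 CPM in M_SAL replicates 1 and 3. The 17 other saline females had 2.15 to 92.3 CPM with a median of 12.1 CPM, so the highest of them passed the lowest F_LPS bird.

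Separation of F_LPS from all 19 saline females was complete for 3 of the 100 genes, those ranked 5, 10 and 78, against 0.0807% of the 9918 genes that passed the filter on low counts. Without M_SAL replicates 1 and 3 it was complete for 66 of the 100, against 1.1% of the same genes. Leaving out F_LPS replicate 1 as well, it was complete for 82, against 1.47%. The genes were chosen on this contrast, so the counts describe them and test nothing. In the edgeR fit across the 9918 genes, 96 of the 100 passed an adjusted p of 0.05 as higher in F_LPS than in saline females, where 4.46% of the genes tested were called higher. The 4 others were ranked 75, 76, 87 and 90. Without M_SAL replicates 1 and 3 the count was 98, where 5.45% of 10135 genes were called higher.

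The 3 fully separated genes differed in how M_SAL replicates 1 and 3 stood to the rest. The gene ranked 5 held 470 to 3661 CPM in F_LPS with a median of 701 CPM, against 391 and 243 CPM in M_SAL replicates 1 and 3 and at most 34.9 CPM in the 17 other saline females. In the gene ranked 10, F_LPS ran from 205 to 1791 CPM with a median of 765 CPM, while M_SAL replicates 1 and 3 held 179 and 185 CPM and the 17 others at most 74 CPM. In both genes these 2 libraries were under the lowest F_LPS bird and above every other saline-injected bird. The gene ranked 78 ran from 363 to 1306 CPM in F_LPS with a median of 547 CPM. There M_SAL replicate 1, at 193 CPM, was inside the 160 to 290 CPM of the 17 others, and replicate 3, at 343 CPM, was above them.

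The same birds were high or low for nearly all of the genes. F_LPS replicate 8 was the highest F_LPS library for 58 genes and replicate 6 for 36. F_LPS replicate 1 was the lowest for 88 genes and replicate 2 for 6. F_LPS replicate 1 exceeded all 17 of the other saline females for 69 genes. The genes were chosen as high in F_LPS, and the share over all genes is not given, so this count only describes them. Measured from the median of those 17 females, the difference of F_LPS replicate 1 was 0.43 of the F_LPS median difference (median over the 100 genes). That of F_LPS replicate 8 was 1.38. F_LPS replicate 1 was also the library with the most reads of all, 14366101, and the most genes detected in its group, 13027. F_LPS replicate 8 had the fewest genes detected in the group, 11997. F_LPS replicate 6 had nearly as many reads as replicate 1, 14302184, and replicate 2 had the fewest of the group, 9164081. The part of depth and of the number of genes detected in this order was not tested.

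**Figure D3:**
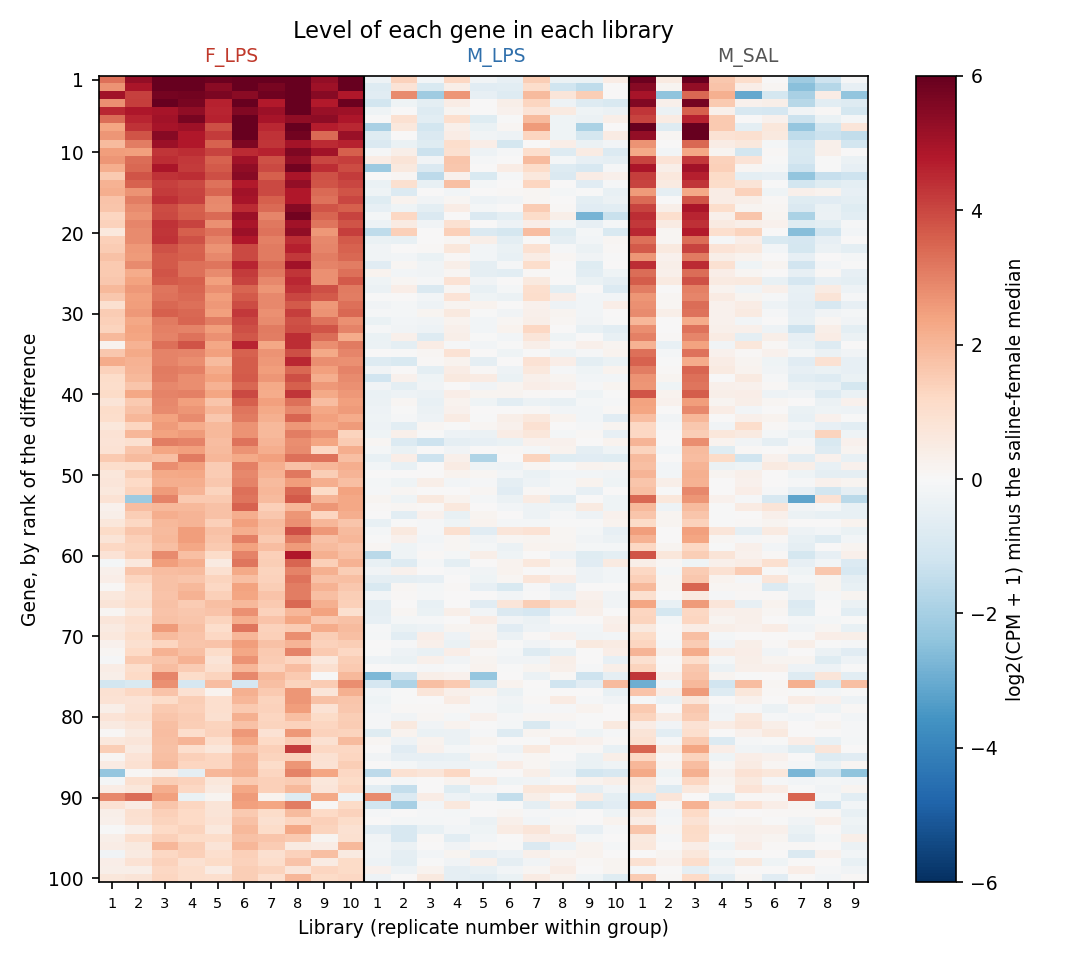
Level of each of the 100 genes (rows, by rank) in each of the 29 libraries (columns, by group and replicate), as log2(CPM + 1) minus the saline-female median. Red fills most of F_LPS, darkest in replicates 6 and 8 and palest in replicate 1. M_SAL replicates 1 and 3 form 2 red columns, and rows such as those ranked 76, 87 and 90 break the pattern.

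A few genes departed from the common order of F_LPS birds. F_LPS replicate 8 held more than 2-fold the CPM of every other F_LPS library for 8 genes, among them those ranked 3 and 5. Its level for the gene ranked 3 was 9865 CPM, where the F_LPS median was 988 CPM and the lowest F_LPS library held 358 CPM. The gene ranked 53 had the largest spread among F_LPS birds, with an SD of 1.64 on the log2 scale. It lay at 9.71 CPM in F_LPS replicate 2 and at 86.0 CPM or more in the other 9 F_LPS libraries. M_SAL replicates 1 and 3 held 523 and 304 CPM, and the 17 other saline females ran from 4.41 to 87.9 CPM. The smallest spread, an SD of 0.36, belonged to the gene ranked 100, at 321 to 780 CPM in F_LPS against 121 to 563 CPM in saline females.

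The spread among injected birds was wide. The SD of log2(CPM + 1) among the 10 F_LPS libraries had a median of 0.77 over the 100 genes, against 0.35 over the other genes of the band, and 100 of the 100 exceeded that value. Among the 10 M_LPS libraries, the medians were 0.37 for the 100 genes and 0.30 for the others, and 69 of the 100 were above 0.30. In the 7 M_SAL libraries other than replicates 1 and 3 they were 0.46 and 0.31, with 75 of the 100 above. Without F_LPS replicates 1, 6 and 8, the birds most often at either end of their group, the F_LPS medians were 0.43 and 0.31; taking out extreme birds lowers an SD by construction. With all 9 M_SAL libraries the median over the 100 genes was 1.17, against 0.34. The 100 genes of the band lowered most in F_LPS had median SDs of 0.71 in F_LPS, 0.63 in M_LPS and 0.63 in the 7 other M_SAL libraries. A wide spread among injected birds was thus seen in the lowered genes too, where it was nearly as wide in these saline birds. In the raised genes it was 0.77 in F_LPS, against 0.37 in M_LPS and 0.46 in the 7 other M_SAL libraries. Spread was also described by size of difference. Over the 33 genes above 3 on the log2 scale the median SD was 0.95 in F_LPS and 0.58 in M_LPS. It was 0.71 in F_LPS and 0.31 in M_LPS over the 19 genes between 2 and 3, and 0.69 in F_LPS and 0.32 in M_LPS over the 48 genes between 1 and 2. F_LPS did not overlap the 17 saline females other than M_SAL replicates 1 and 3 for 30 of the 33, 16 of the 19 and 20 of the 48 genes. The share was 1.1% of the 9918 genes that passed the filter on low counts. These classes were cut on the difference that chose the genes, so separation rises with class by construction. Differences in spread were not tested.

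Among the saline females outside M_SAL replicates 1 and 3, the variation also followed particular birds. M_LPS replicate 7 was the highest M_LPS library for 37 genes and among its group's 3 highest for 62, and M_LPS replicate 4 was among the 3 highest for 57. The 100 genes took 1.10% and 1.05% of their reads, against 0.669% to 0.828% in the other 8 M_LPS libraries. M_LPS replicate 7 also had the most genes detected of all libraries, 14192. In M_SAL the lowest library was replicate 7 for 42 genes, with a share of 0.596%.

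M_SAL replicates 1 and 3 carried the profile of the injected birds across most of the 100 genes. Both exceeded all 17 other saline females for 89 genes, and both were at or above the lowest F_LPS library for 88. Each of the 17 others was at or above that lowest library for 5 to 28 genes. The share over all genes is not given for the counts of this paragraph, so they describe the 100 genes only. Measured from the median of the 17, the difference of M_SAL replicate 1 was 0.91 of the F_LPS median difference and that of replicate 3 was 1.01, each a median over the 100 genes. The levels of the pair were within 2-fold of each other for 92 genes. By size of difference, both exceeded the 17 for 33 of the 33 genes above 3 on the log2 scale, for 18 of the 19 between 2 and 3, and for 38 of the 48 between 1 and 2. These classes were cut on the difference that chose the genes, so the counts by class are a description only.

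**Figure D4:**
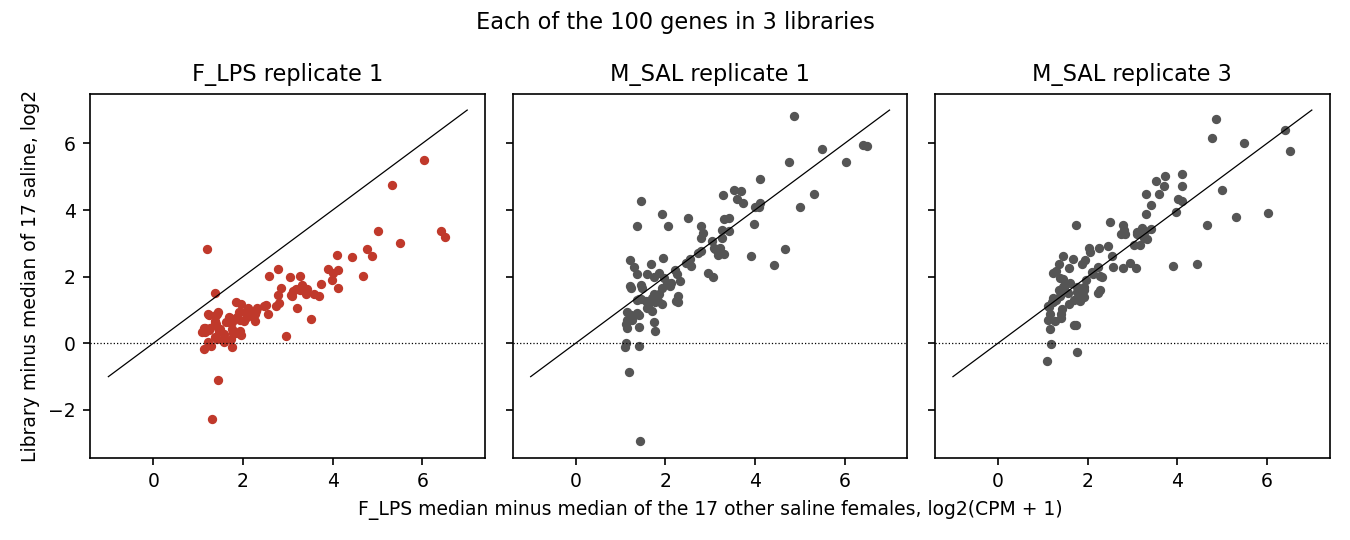
Difference of 1 library from the median of the 17 saline females other than M_SAL replicates 1 and 3 (vertical axis) against that of the F_LPS median (horizontal axis), both in log2(CPM + 1), with 1 point per gene for the 100 genes and a solid line of equality. F_LPS replicate 1 lies below the line for nearly every gene (median ratio 0.43), and M_SAL replicates 1 and 3 scatter around it (0.91 and 1.01).

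Exceptions to this profile were few. Both libraries lay no higher than the highest of the other 17 saline females for 6 genes, those ranked 61, 62, 76, 89, 90 and 99, named here after their values were seen. The gene ranked 61 had them at 23.3 and 14.6 CPM, where F_LPS ran from 16.2 to 209 CPM with a median of 64.1 CPM and the 17 others from 9.68 to 35.3 CPM. The gene ranked 99 held 30.9 to 70.1 CPM in F_LPS, 22.7 and 16.6 CPM in M_SAL replicates 1 and 3, and 16.3 to 33.5 CPM in the 17 others. Only F_LPS replicates 1 and 2 of the injected birds overlapped the saline females in that gene. The gene ranked 89 had the lowest F_LPS median of the 100, with 17, 30.8 and 66.1 CPM as its lowest, median and highest level there. The pair held 20.7 and 19.8 CPM, and the 17 others 4.05 to 22.6 CPM. The gene ranked 62, by contrast, had the pair high within a wide saline range, at 143 and 178 CPM, where F_LPS ran from 74.6 to 491 CPM and the 17 others from 30.7 to 186 CPM.

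The raised genes were set against the 100 genes of the same band with the most negative differences, which ran from -2.28 to -0.64 with a median of -0.78. M_SAL replicates 1 and 3 lay on the F_LPS side of the median of the 17 for 96 and 97 of the raised genes, against 67 and 61 of the others. They lay within the range of the 17 for 9 and 7 of the raised genes, against 75 and 71 of the others. Injected birds, too, were often within that range for the others: F_LPS replicate 1 for 78, replicate 2 for 83, replicate 6 for 64 and replicate 8 for 48 of the 100. On the F_LPS side of the median of the 17, F_LPS replicates 1, 2, 6 and 8 lay for 79, 75, 92 and 90 of the others. For the raised genes these counts were 95, 98, 99 and 99. Both sets of genes were chosen on F_LPS values. These shares were not tested against each other.

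Some genes varied between birds in every group. For the gene ranked 76, 13 libraries held 47.0 to 128 CPM and 16 held 1.45 to 21.0 CPM, with none between. The upper range held 6 of the 10 F_LPS libraries, 3 of the 10 M_LPS libraries and 4 of the 9 M_SAL libraries. The gene ranked 90 had the lowest saline-female median of the 100, 10.7 CPM, and its libraries also fell into separate ranges. It held 54.7 to 129 CPM in 7 libraries, of which 5 were F_LPS, 1 was M_LPS and 1 was M_SAL, and 3.40 to 18.6 CPM in the other 22. In the gene ranked 87, F_LPS ran from 1.88 to 112 CPM and the saline females from 1.13 to 66.8 CPM. At the gene ranked 75, M_SAL replicate 1 was the highest of all 29 libraries at 969 CPM, where F_LPS ran from 48.5 to 378 CPM. An SD above 1 among the 17 saline females was found for 9 of the 100 genes, against 1.48% of the other genes of the band.

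At the end of the ranking, the genes ranked 98, 99 and 100 differed by 1.10, 1.10 and 1.09, and the next 3 genes, left out, by 1.07, 1.06 and 1.05. The gene ranked 98 had medians of 69.3 CPM in F_LPS and 31.7 CPM in saline females. The second of the genes left out had medians of 104 CPM in F_LPS and 49.4 CPM in saline females. No gap separated the last genes chosen from the first left out.

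Whether a saline-injected female's blood changes when her male is injected was addressed by M_LPS against M_SAL. The choice of genes pooled these groups and did not use the difference between them. No gene of the 100 passed an adjusted p of 0.05 (edgeR quasi-likelihood test with Benjamini-Hochberg adjustment over 9918 genes, smallest adjusted p among the 100 of 0.427), and 0% of all genes tested were called in either direction. At an unadjusted p below 0.05 the same test had 61 of the 100 lower in M_LPS and 0 higher, where 2.99% of all genes were lower and 1.31% higher. The median log2 fold change was -0.89 over the 100 genes, -0.02 over the other genes of the band and -0.01 over all genes tested. The fold change was negative for 99 of the 100. Its median was -1.87 over the 33 genes with a difference above 3 in F_LPS, -1.03 over the 19 between 2 and 3 and -0.49 over the 48 between 1 and 2.

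These values turned on M_SAL replicates 1 and 3. Without them, 0 of the 100 genes had an unadjusted p below 0.05, where 1.37% of all genes were lower and 1.25% higher. The median log2 fold change over the 100 genes was then 0.011, with 55 positive and 45 negative. The pair was left out for standing high in these same genes, so a weaker difference follows from that choice and tests nothing. By size of the F_LPS difference, from large to small, the medians were 0.05, 0.06 and -0.03. Without replicate 1 alone the median was -0.63, and without replicate 3 alone it was also -0.63. In limma voom each library was given a weight, lower where the library departed more from the fit. That gave 0 calls and 3 genes lower at an unadjusted p below 0.05, where 1.58% of all genes were lower and 1.58% higher. DESeq2 called 12 of the 100 genes lower in M_LPS with all libraries and 0 higher, where 0.394% of the genes given an adjusted p were called lower and 0.0131% higher. In each of these 12 genes M_SAL replicates 1 and 3 were the highest pair of the saline females, and without the pair DESeq2 called 0 of the 100. It then had 1 of the 100 higher and 0 lower at an unadjusted p below 0.05, where 1.6% of all genes were higher and 1.42% lower.

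The smallest unadjusted p in this comparison belonged to the genes ranked 8, 4 and 2. In the gene ranked 8, M_LPS ran from 18.9 to 99.1 CPM with a median of 34.3 CPM, and M_SAL from 13.2 to 2555 CPM with a median of 61.7 CPM. With all libraries this gave a fold change of -3.59 on the log2 scale (SE 0.88, adjusted p = 0.427 by edgeR). Without M_SAL replicates 1 and 3, the highest of the remaining M_SAL libraries was 79.2 CPM and the log2 fold change 0.0055 (SE 0.47, 95% interval -0.97 to 0.98). In the gene ranked 4 the log2 fold change was -3.69 with all libraries and -0.21 without the pair. In the gene ranked 2 it was -3.51 and -0.27, and in the gene ranked 1 it was -3.59 and 0.14.

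With all libraries, 0 lay inside the 95% confidence interval of the fold change for 39 of the 100 genes, with a median half-width of 0.91 on the log2 scale. Without M_SAL replicates 1 and 3, it did so for 100 of the 100, with a median half-width of 0.62. The pair was left out for standing apart in these same genes. The narrower intervals rest on that choice and set no bound on an effect of the male's injection. Without the pair, the upper bound of the gene ranked 1 was 1.25. The highest upper bound was that of the gene ranked 3, at 3.25. These intervals do not give the size of change that could be detected at this number of birds.

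**Figure D5:**
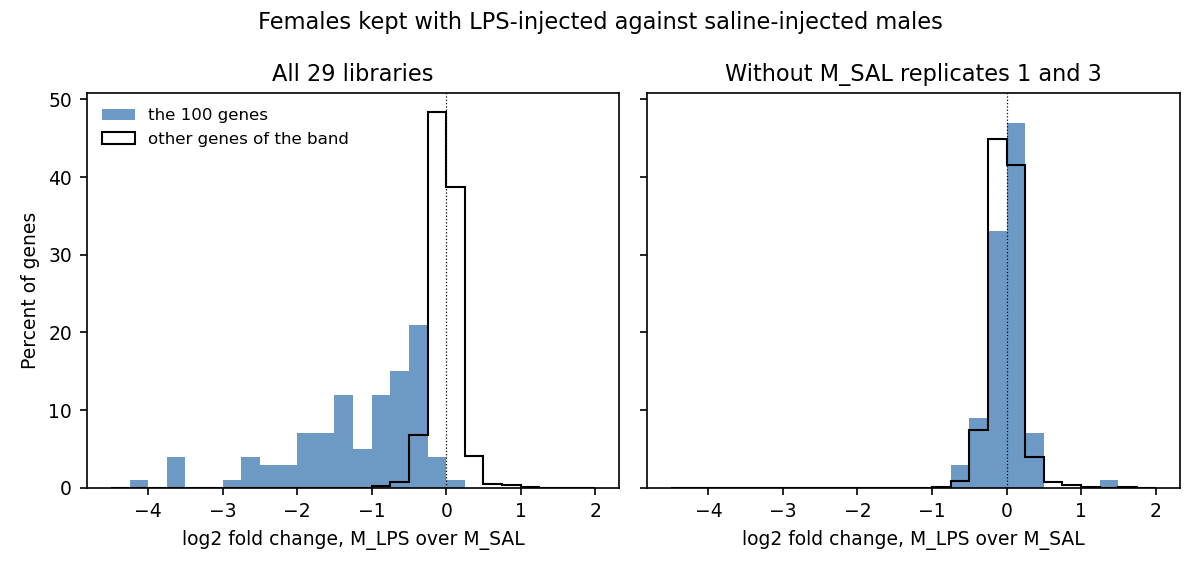
Distribution of the log2 fold change of M_LPS over M_SAL for the 100 genes (blue bars) and for the other genes of the band (black outline), in percent of genes, with all 29 libraries (left) and without M_SAL replicates 1 and 3 (right). The median of the 100 genes is -0.89 on the left and 0.011 on the right, where both distributions centre near 0.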

How the data were processed

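The deposited table held unnormalised counts of reads, 1 row per Ensembl identifier, for 29 libraries; all values were whole and column totals differed. CASAVA 1.8.2, HISAT2 and DESeq2 are named in the submitters' processing notes without their roles; which counter, genome build, annotation and strand setting were used is not given in the sources used, so overlapping genes and near-identical copies could not be told apart. The reference table of 20956 quail genes matched 0 of the 21561 identifiers, so the gene lists and cell type markers that had been drawn up were not used.

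Columns were tied to samples by title, and groups follow the treatment labels; replicate numbers were given in accession order. The labels do not state how many birds or batches lay behind the libraries beyond 1 blood sample each. The p-values treat each library as an independent sample, which could not be checked. No library repeated another, since chi-square divided by its degrees of freedom was at least 27.5 in all 406 pairs. CPM was computed on column totals, with a pseudocount of 1 CPM on the log2 scale. The fit used filterByExpr (9918 genes kept), TMM scaling and edgeR's quasi-likelihood test (edgeR 4.0.16, R 4.3.3), with the 3 groups in 1 fit and Benjamini-Hochberg adjustment over all genes at 0.05. F_LPS was also set against the mean of M_LPS and M_SAL in that fit. An SE was the fold change divided by the root of its F. Alternatives were DESeq2 1.42.0, voom with quality weights in limma 3.58.1, RLE scaling, no filter, M_LPS and M_SAL alone in the fit, each library left out, and M_SAL replicates 1 and 3 left out. The rule was repeated with TMM scaling, means, pseudocounts of 0.1 and 5 CPM, and other saline libraries. The script was tested on simulated data. With no symbols, genes were named by a rule: the 2 first identifiers, and by rank the 3 last inside and 3 first outside, the highest and lowest saline median, the widest and narrowest spread in F_LPS and the 3 smallest p in M_LPS against M_SAL; those ranked 3, 5, 6, 7, 10, 61, 62, 75, 76, 78, 87 and 89 were added after their values were seen. The 100 genes, the lists and these choices were made with earlier results of these data known.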

Additional observations from a re-analysis of the deposited data

Results flagged for a closer look

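In 81 sets of library values (3 groups, 23 of the genes and 4 library measures), 7 held a library far from the rest of its group. Chance flags about 1 in 20 groups, but several of these genes were picked for a library that stood out, so no chance value applies to this count. The gap to the nearest library is given as a fraction of the group's range, on the log2(CPM + 1) scale for genes. F_LPS replicate 8 was far above the other F_LPS libraries for the gene ranked 3 (0.635) and the gene ranked 5 (0.658). F_LPS replicate 2 was far below the others for the gene ranked 53 (0.515). For the gene ranked 90, M_LPS replicate 1 was far above its group (0.552) and M_SAL replicate 7 far above its own (0.634). M_SAL replicate 1 was far above the other M_SAL libraries for the gene ranked 75 (0.511). M_LPS replicate 7 had more genes detected than the rest of its group (0.567). Over all 100 genes in the 3 groups, 17 of 300 sets held such a library: 10 in F_LPS, 5 in M_LPS and 2 in M_SAL. The genes were chosen on F_LPS values and follow the same birds, so no chance value applies to this count either. F_LPS replicate 8 accounted for 6 and F_LPS replicate 1 for 3. M_SAL replicates 1 and 3 stand apart as a pair, which this measure of a single gap does not register.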

How the results depend on the processing

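No paired analysis was possible because the labels give no replicate numbers. The titles of 1 F_LPS and 1 M_LPS library share their digits, and no other titles do so across groups. Within F_LPS, the titles of replicates 3 and 5 share their digits too. Whether those libraries are of separate birds is not stated, so their independence could not be checked. The count of the 100 genes called in M_LPS against M_SAL was 0 with edgeR, its alternatives and limma voom, and 12 with DESeq2. The median log2 fold change of the 100 genes in that comparison was -0.89, and -0.99 to -0.63 with each library left out in turn; it was -0.35 with limma voom, 0.011 without M_SAL replicates 1 and 3, and 0.012 with DESeq2 without that pair. The genes ranked 1 and 8 turned positive without the pair, at 0.14 and 0.0055 with edgeR and 0.14 and 0.0067 with DESeq2. The genes with complete separation of F_LPS from saline females numbered 3, and 3 to 7 with each library left out. They numbered 7 without F_LPS replicate 1, 7 without M_SAL replicate 1 and 66 without M_SAL replicates 1 and 3. They numbered 82 without that pair and F_LPS replicate 1, 70 with M_LPS alone as saline females, and 2 with TMM scaling. The shares of all genes tested were 0.0807% beside the count of 3, 1.1% beside 66 and 1.47% beside 82. No share is given for the other counts, which describe the choice of genes only. The alternatives of the separation count, except those without F_LPS replicate 1 alone or without the M_SAL pair alone, and the DESeq2 fit without the pair, were chosen after seeing the data. The rule took 93 to 99 of the same 100 genes under its other settings, the lowest with M_SAL alone as saline females, and their median difference ran from 1.87 to 2.22. In F_LPS against saline females, the contrast that chose the genes, 90 to 98 of the 100 were called. With edgeR, 4.46% of all genes tested were called higher with all libraries and 5.45% without M_SAL replicates 1 and 3. The lowest read count of any of the genes in any library was 11, so counting error is largest for the gene ranked 87.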
